A study of Mus musculus with 59 samples.

Results

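The genes of polyamine metabolism were read in 59 RNA-seq libraries of mouse skeletal muscle. The 10 genes were taken by symbol from the 47643 symbols of the deposited table, and all 10 were present: Odc1, Azin1, Azin2, Oaz1, Amd1, Amd2, Srm, Sms, Smox and Sat1. Every library came from female NCI Ath/nude mice at 4 months of age, an athymic strain without T cells, and every mouse carried a human pediatric melanoma xenograft. A single xenograft that causes wasting (cachectic) was set against a single xenograft that does not (non-cachectic), so each condition stands for 1 tumor, and no tumor-free group was analysed here. Diaphragm libraries came from mice given mock injections (9 non-cachectic, 10 cachectic) or recombinant Fibcd1 (rFibcd1; 10 non-cachectic, 10 cachectic). Fibcd1 is a fibrinogen-domain protein, tested in the study for an influence on the size of muscle fibers. Tibialis anterior and soleus, a fast and a slow hindlimb muscle, gave 5 libraries for each melanoma and muscle.

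Polyamines (putrescine, spermidine and spermine) are small cations that bind nucleic acids and are needed for growth and protein synthesis. Odc1 makes putrescine from ornithine, Amd1 and Amd2 supply the aminopropyl donor, Srm and Sms use it to build spermidine and spermine, and Smox and Sat1 drive the way back. The antizyme Oaz1 sends ornithine decarboxylase to the proteasome, and the antizyme inhibitors Azin1 and Azin2 counter it. In muscle, this pathway is known for its ties to androgen action and fiber size.

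Levels are TPM, the share of transcripts scaled to a fixed total, and are scaled by gene length, so genes can be compared with each other. Every library adds up to 1000000 TPM, so the sequencing depth behind a value is unknown. Differences between groups are on the log2(TPM + 1) scale, and a gene was called when limma gave a Benjamini-Hochberg adjusted p under 0.05 over all genes tested. The scale understates changes of low genes such as Amd2 and Azin2. The labels call the libraries replicates, and p-values measure the spread between these libraries. In bulk muscle, fewer cells of a type and less RNA per cell cannot be told apart.

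Fiber and cell markers were read first. Summed Myh4 and Myh1, the fast fiber myosins, averaged 16852 TPM in non-cachectic tibialis anterior and 288 TPM in soleus, and the slow fiber markers Myh7, Tnni1 and Myl2 averaged 8.83 and 12371 TPM. The non-cachectic mock diaphragm lay between (4667 and 1214 TPM). The 4 melanocyte markers (Pmel, Mlana, Tyr and Dct) never summed above 2.40 TPM. The libraries fell into 2 states by Pcna-ps2, a Pcna pseudogene: 36 libraries held 5.60 to 22.8 TPM (high state) and 23 held 0 to 0.428 TPM (low state). In the diaphragm the high state covered 3 of 9 non-cachectic mock, 9 of 10 cachectic mock, 6 of 10 non-cachectic rFibcd1 and 8 of 10 cachectic rFibcd1 libraries. In both hindlimb muscles all non-cachectic libraries were low and all cachectic libraries were high, so there the melanoma and the state cannot be told apart. In tibialis anterior the cachectic library numbered 8 in the table stood apart, with a mitochondrial share of 25.1% of TPM against 38.9% to 45.6% in the other 4.

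Amd1 and Amd2 are near copies, and their values carry the limit that reads can be split between them. Amd1 lies at chr10:40287458-40302186 on the minus strand (GRCm38, GENCODE M21). Amd2 lies on the same strand at chr10:35708675-35711892, in 1 exon as long as its 3218-base transcript. The Amd1 transcript of 3204 bases matched it over 3201 aligned bases with 11 mismatches, an identity of 99.7%. Windows of 100 bases that also occur in another gene made up 76.4% of the Amd1 and 72.9% of the Amd2 transcript. The DNA at the start sites shows where the copies part upstream, with 70 bases before and 30 bases from each start (RefSeq, GRCm38.p6, minus strand). Capitals mark the 28 bases that the pair share within these windows.
Amd1 (chr10:40302159-40302258): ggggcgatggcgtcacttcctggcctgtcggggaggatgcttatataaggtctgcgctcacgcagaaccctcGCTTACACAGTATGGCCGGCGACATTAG
Amd2 (chr10:35711862-35711961): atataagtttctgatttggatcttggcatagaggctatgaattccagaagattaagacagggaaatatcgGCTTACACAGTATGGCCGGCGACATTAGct
The shared run begins at the Amd2 start and 2 bases after the Amd1 start, and the bases before it differ. The Amd1 window ends with the run, so the 2 lower-case bases after it in the Amd2 line were not compared and may be shared.

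Most other genes were less exposed to copies. Oaz1 (chr10:80826656-80829290) shared 41.8% of its windows with Oaz1-ps, which never passed 0.625 TPM. Odc1 (chr12:17544794-17551505) shared 19.6%, and its highest copy in the table, Gm9260, reached 1.34 TPM. Sms (chrX:157443855-157492287) shared 27.7%, and Sat1 (chrX:155213132-155216449) 0.376%. Azin1 (chr15:38487427-38519266), Azin2 (chr4:128930233-128962442), Srm (chr4:148591503-148594993) and Smox (chr2:131491496-131525922) shared none.

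**Figure D1:**
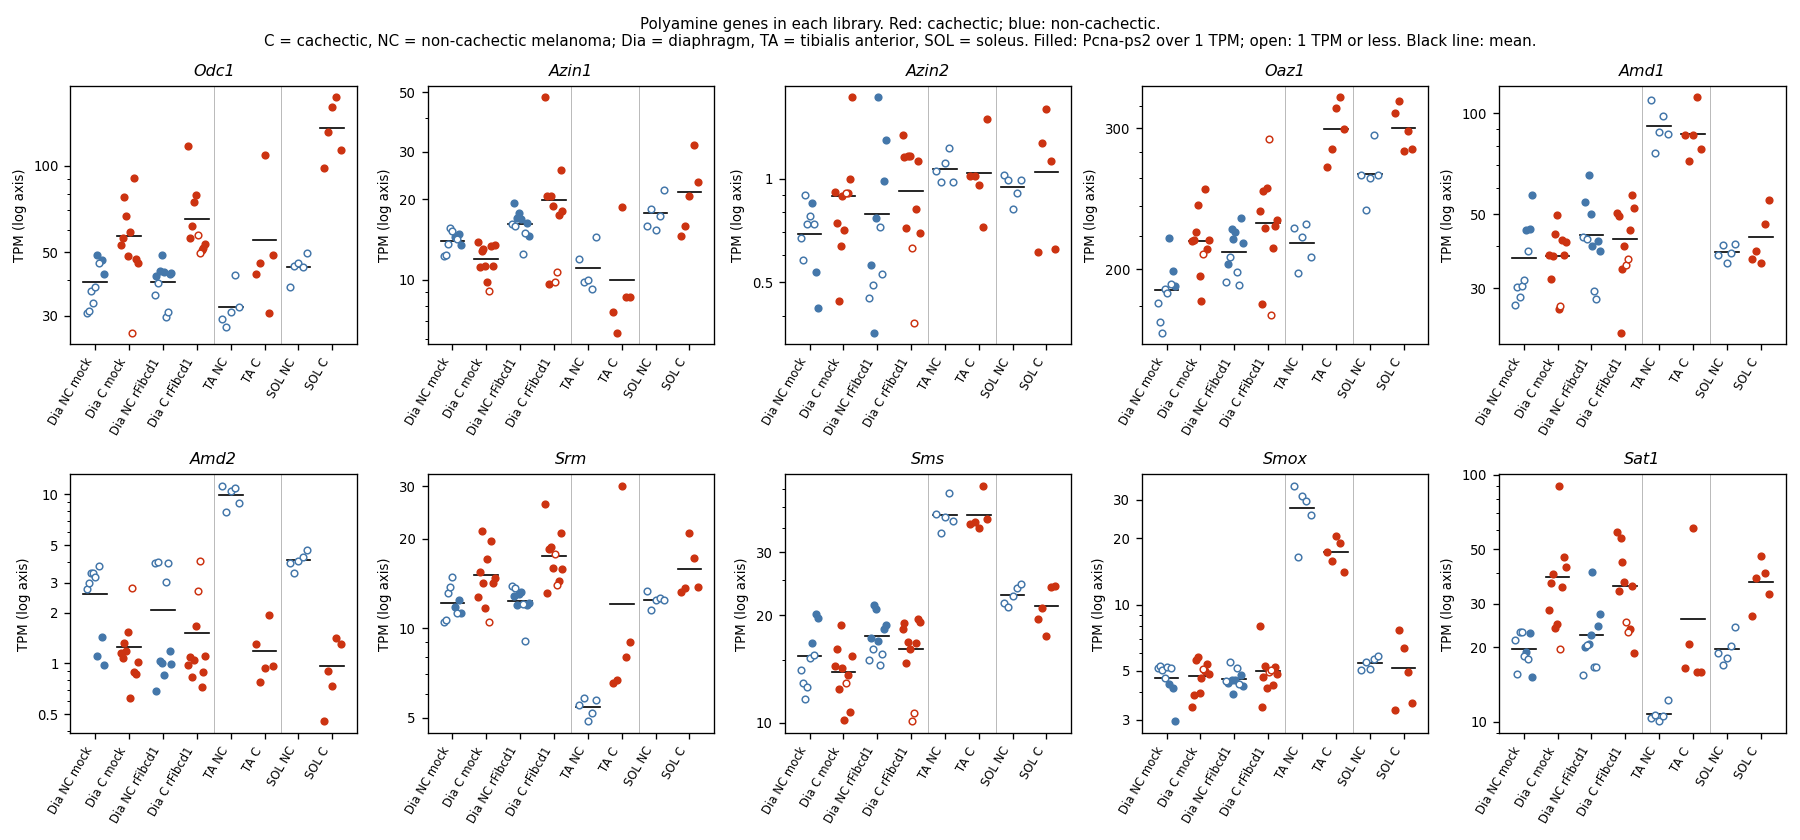
TPM of the 10 polyamine genes in each of the 59 libraries, on a log axis for each gene, by group along the horizontal axis, with the group mean as a black line. Filled points are high-state and open points low-state libraries. Odc1 in soleus lies between 98.4 and 173 TPM with the cachectic melanoma and between 37.7 and 49.7 TPM with the non-cachectic one, and open points of Amd2 sit above all filled points of the same muscle.

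The first comparison set the cachectic against the non-cachectic melanoma in mock diaphragm. Odc1, Oaz1, Srm and Sat1 were called higher and Amd2 lower with the cachectic melanoma, 5 of 10 genes, where 33.5% of the 13426 genes tested were called (30.9% higher, 2.67% lower). The median difference was 0.09 over the 10 genes and 0.20 over all genes. In rFibcd1 diaphragm Odc1 and Srm were called higher, 2 of 10, against 9.11% of all genes (7.14% higher), and the median was 0.11 over the 10 genes and 0.08 over all genes. In tibialis anterior Oaz1 and Sat1 were called higher and Amd2 and Smox lower, 4 of 10, against 60.2% of 11105 genes (56.4% higher, 3.78% lower), and the median was -0.02 over the 10 genes and 0.41 over all genes. In soleus Odc1 and Sat1 were called higher and Amd2 lower, 3 of the 9 genes tested, against 25.1% of 11957 genes (17.5% higher, 7.54% lower), and the median was 0.19 over those 9 genes and 0.09 over all genes. Azin2 was not tested in soleus, since it did not reach 1 TPM in enough libraries. With so few genes, none of these counts is read as particular to the polyamine genes. Over the 3 muscles without rFibcd1, Sat1 was called higher and Amd2 lower in all 3, and Amd1, Azin1 and Sms in none.

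**Figure D2:**
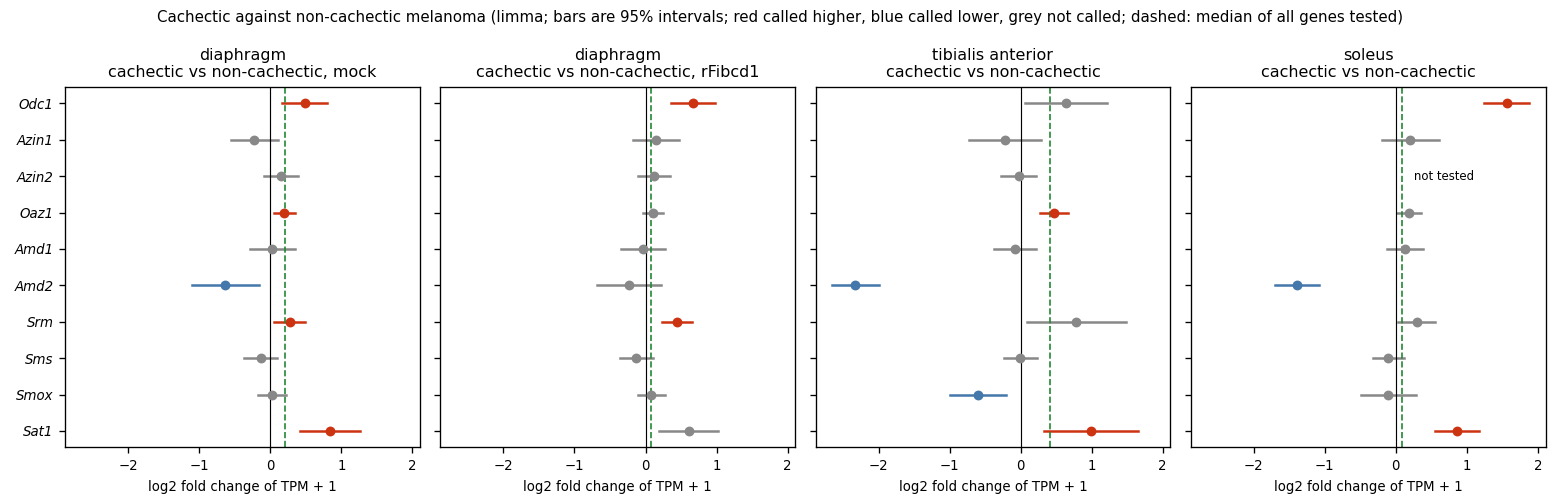
Cachectic minus non-cachectic difference in log2(TPM + 1) for the 10 genes in 4 comparisons, with 95% intervals. Red marks genes called higher, blue called lower and grey not called, and the dashed line is the median of all genes tested. The soleus difference of Odc1 (1.56) and the tibialis anterior difference of Amd2 (-2.33) lie farthest from 0.

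The direction of calls over all genes depended on scaling. The mitochondrial share of TPM was 47.5% ± 3.0 (SD, n = 9) in non-cachectic and 38.1% ± 3.2 (n = 10) in cachectic mock diaphragm, 48.5% and 38.8% in tibialis anterior, and 41.1% and 30.5% in soleus. With median-ratio scaling, higher calls made up 46.8% in place of 92.0% of all calls in mock diaphragm, 47.2% in place of 78.3% with rFibcd1, 45.6% in place of 93.7% in tibialis anterior and 54.3% in place of 69.96% in soleus. It called 15.8%, 8.97%, 40.3% and 28% of all genes in the same order, and brought the median difference of all genes to 0.01 (mock diaphragm), -0.01 (tibialis anterior) and 0.01 (soleus). Where a polyamine gene loses or gains its call this way, its value is given with it.

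Markers of other cell types also differed, and their counts are to be read against the shares of all genes called higher given above. The summed TPM of 6 macrophage markers (Adgre1, Cd68, Csf1r, Mrc1, Cd163, C1qa) ran from 73.4 to 169 in non-cachectic and from 120 to 431 in cachectic mock diaphragm, and 3 of 6 were called higher. It ran from 9.79 to 22.4 and from 18.2 to 117 in tibialis anterior (5 of 5 tested called higher), and from 43.0 to 55.8 and from 32.5 to 155 in soleus (1 of 6). With rFibcd1 it ran from 88.5 to 370 and from 104 to 827 (0 of 6 called). The 4 neutrophil markers S100a8, S100a9, Retnlg and Csf3r summed to 3.92 to 24.4 and 11.05 to 60.8 TPM in mock diaphragm (3 of 4 called higher), to 1.20 to 4.12 and 7.82 to 55.9 TPM in tibialis anterior and to 3.31 to 5.18 and 8.32 to 33.2 TPM in soleus (2 of 2 tested called higher in each). With rFibcd1 0 of 4 were called. Of 3 endothelial markers (Pecam1, Cdh5, Tek), Pecam1 and Tek were called higher in mock diaphragm and again in tibialis anterior, and Tek alone in soleus. Of 3 fibroblast markers (Pdgfra, Dcn, Lum), 1 was called higher in mock diaphragm and 2 in tibialis anterior, and 2 were called lower in soleus. Of 4 adipocyte markers, Cfd alone was called higher, in mock diaphragm (1.34). Of 3 slow fiber markers, Myh7 alone was called higher in mock diaphragm (0.40, against 0.02 for Tnni1 and -0.24 for Myl2) and in soleus (0.41, against 0.29 and 0.04). None of these markers was at 0 in all libraries, and their part in the differences below was not tested.

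Odc1 encodes ornithine decarboxylase, the entry step of the pathway. In mock diaphragm it ran from 30.8 to 49.0 TPM (median 37.9) with the non-cachectic and from 26.3 to 90.7 TPM (median 54.4) with the cachectic melanoma. The groups overlapped: 6 of 10 cachectic libraries lay above all non-cachectic ones, and the library below all of them was the only low-state library of its group. Odc1 rose by 0.48 (SE 0.16, limma adjusted p = 0.0181). That call was lost with the state as a term (0.23, adjusted p = 0.315, limma), among high-state libraries alone (0.36, adjusted p = 0.242, limma) and with median-ratio scaling (0.25, adjusted p = 0.203, limma).

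With rFibcd1, Odc1 ran from 29.7 to 48.9 TPM (median 41.6) and from 49.7 to 117 TPM (median 56.9). All 10 cachectic libraries lay above all non-cachectic ones, which 0.0521% of the genes tested did in that direction. Odc1 rose by 0.67 (SE 0.15, limma adjusted p = 0.00561), and by 0.58 with the state as a term (limma adjusted p = 0.00557), where 10.1% of genes were called. Among high-state libraries alone the difference was 0.59 and was not called (limma adjusted p = 0.297), where 0% of genes were. By Dunn tests it was not called (adjusted p = 0.0865). Without the library at 117 TPM it was 0.57 (limma adjusted p = 0.0130).

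In tibialis anterior, Odc1 was at 29.3, 27.5, 31.0, 41.5 and 32.3 TPM with the non-cachectic and at 42.0, 45.8, 109, 30.8 and 48.9 TPM with the cachectic melanoma. The cachectic libraries were high in 4 of 5 cases and the fifth lay within the other group. The difference of 0.63 (SE 0.27) was not called (limma adjusted p = 0.0552). Without the library at 109 TPM (number 8) it was 0.36 and was called (limma adjusted p = 0.0488), and it was also called without number 9.

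In soleus, Odc1 was at 37.7, 44.6, 45.9, 44.3 and 49.7 TPM and at 98.4, 131, 161, 173 and 114 TPM. The groups did not overlap, as for 14.6% of the genes tested in that direction. Odc1 rose by 1.56 (SE 0.15, limma adjusted p = 5.91e-05), and by 1.47 with median-ratio scaling (limma adjusted p = 2.57e-05). The ratio of the mean TPM was 3.05.

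The difference of Odc1 between the melanomas was itself compared between muscles. It was smaller in mock diaphragm than in soleus by 1.08 (SE 0.30, limma adjusted p = 0.0388), where 2.52% of 13501 genes were called (0.57% in that direction). It was smaller in tibialis anterior than in soleus by 0.93 (SE 0.34, limma adjusted p = 0.0477), where 20.4% were called (1.26% in that direction). Over all genes the median of these differences was -0.18 for diaphragm minus tibialis anterior, 0.12 for diaphragm minus soleus and 0.30 for tibialis anterior minus soleus, and median-ratio scaling took the higher calls from 14.1% to 60.9%, from 77.4% to 34.3% and from 93.8% to 32.8%. Both calls were near the threshold, and both were lost with no filter on low values (limma adjusted p = 0.0504 and 0.0780). The first was lost when any of 15 of the 39 libraries was left out (differences from -1.19 to -0.97), and the second with any of 27 of them (-1.20 to -0.75). Between diaphragm and tibialis anterior the difference was -0.15 (95% interval -0.75 to 0.45).

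Oaz1, the antizyme, was the most abundant of the 10 genes in every group. Its mock diaphragm values ran from 167 to 219 TPM (median 189) and from 183 to 252 TPM (median 217), and 3 of 10 cachectic libraries exceeded all others. It rose by 0.20 (SE 0.07, limma adjusted p = 0.0275), as much as the median of all genes. The call was lost without cachectic library 32 or non-cachectic library 62 or 63 (0.17 to 0.23 over all libraries left out), with the state as a term (0.14, limma adjusted p = 0.216) and among high-state libraries alone (0.10, limma adjusted p = 0.470). In tibialis anterior it was at 226, 198, 220, 228 and 207 TPM against 269, 283, 318, 328 and 300 TPM, with no overlap (49.1% of all genes in that direction). The rise was 0.47 (SE 0.09, limma adjusted p = 0.00291), near the median of 0.41. With median-ratio scaling it was -0.03 in both muscles and not called (limma adjusted p = 0.863 and 0.857). In soleus it was 263 ± 20 (SD, n = 5) and 300.2 ± 19 TPM, a difference of 0.19 that was not called (limma adjusted p = 0.0965). The rise in tibialis anterior was not called different from that in mock diaphragm (-0.27, limma adjusted p = 0.0851) or soleus (0.28, limma adjusted p = 0.0618), but both differences were called with the table's column numbers, which libraries of different muscles share, as a block (-0.24 and 0.28, limma adjusted p = 0.0385 and 0.0115), where 17.2% and 41.2% of genes were called.

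Azin1, an antizyme inhibitor that resembles ornithine decarboxylase but does not make putrescine, was not called between the melanomas. Its mock diaphragm values ran from 12.2 to 15.6 TPM (median 14.2) and from 9.08 to 13.8 TPM (median 12.04). The cachectic libraries lay low, 5 of 10 below every non-cachectic one, and the difference was -0.22 (SE 0.16, limma adjusted p = 0.284). With median-ratio scaling it was -0.44 and was called (limma adjusted p = 0.0154). In tibialis anterior it was at 12.01, 9.80, 9.97, 9.29 and 14.4 TPM against 7.61, 6.37, 18.7, 8.63 and 8.64 TPM. The library at 18.7 TPM is again number 8, and without it Azin1 was called lower by 0.45 (limma adjusted p = 0.0109). With median-ratio scaling of all 10 libraries it was called lower (-0.68, limma adjusted p = 0.00361). In soleus the means were 17.7 ± 2.48 and 21.2 ± 6.85 TPM (SD, n = 5), a difference of 0.21 (95% interval -0.20 to 0.61). With median-ratio scaling the melanoma difference of Azin1 was called lower than in soleus in mock diaphragm (-0.56) and in tibialis anterior (-0.81) (limma adjusted p = 0.0313 and 0.00218), among 3.73% and 11.5% of genes.

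Azin1 also had the smallest p of the 10 genes for rFibcd1. In cachectic diaphragm it ran from 9.08 to 13.8 TPM with mock and from 9.65 to 47.8 TPM (median 18.4) with rFibcd1, and 7 of 10 rFibcd1 libraries lay above all mock ones. The difference of 0.56 (SE 0.16) was not called (unadjusted p = 0.00126, adjusted p = 0.228, limma). Without the library at 47.8 TPM it was 0.40 (limma adjusted p = 0.444). Without the rFibcd1 library numbered 3 it was 0.65 and was called (limma adjusted p = 0.0375). Among high-state libraries alone it was 0.70 and was called (limma adjusted p = 0.0255), along with 5.57% of all genes.

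Azin2, the second antizyme inhibitor, was near the floor of the filter in all groups, with means between 0.691 and 1.07 TPM. It was not called in any melanoma or rFibcd1 comparison.

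Amd1 and Amd2 encode S-adenosylmethionine decarboxylase, which makes the aminopropyl donor. Amd1 was not called between the melanomas in any muscle as deposited. The differences were 0.03 (95% interval -0.29 to 0.35) in mock diaphragm, -0.08 (-0.38 to 0.21) in tibialis anterior and 0.12 (-0.13 to 0.38) in soleus. Its means were 37.0 ± 10 and 37.3 ± 7.5 TPM in mock diaphragm, 91.7 ± 13 and 86.9 ± 15 TPM in tibialis anterior, and 38.5 ± 2.1 and 42.6 ± 8.2 TPM in soleus (SD). In tibialis anterior with median-ratio scaling it was called lower by 0.58 (limma adjusted p = 0.0207). Within states, its mock diaphragm means were 48.9 TPM (n = 3) and 38.5 TPM (n = 9) in high-state libraries, non-cachectic first. In low-state libraries they were 31.0 TPM (n = 6) and 26.5 TPM (n = 1). Amd1 was not called there with the state as a term or among high-state libraries alone.

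Amd2 was called lower with the cachectic melanoma in all 3 muscles. Its level moved with the Pcna-ps2 state, as given below, and in the hindlimb muscles the state and the melanoma cannot be told apart. Whether the annotation or the mapping of reads differed between the states was not tested. In tibialis anterior it was at 11.2, 7.89, 10.5, 10.8 and 8.89 TPM with the non-cachectic and at 1.30, 0.777, 0.936, 1.94 and 0.966 TPM with the cachectic melanoma. In soleus it was at 3.92, 3.41, 4.05, 4.24 and 4.70 TPM against 0.455, 0.901, 0.741, 1.42 and 1.30 TPM. Neither muscle had an overlap, a pattern of 2.55% of genes in tibialis anterior and 5.4% in soleus in that direction. Amd2 fell by 2.33 (SE 0.15, limma adjusted p = 3.2e-06) in tibialis anterior and by 1.39 (SE 0.14, limma adjusted p = 0.000106) in soleus. In mock diaphragm it ran from 0.982 to 3.76 TPM (median 2.97) and from 0.626 to 2.80 TPM (median 1.12), and fell by 0.63 (SE 0.23, limma adjusted p = 0.0319). That call was lost without any 1 of 9 mock libraries, cachectic 20, 32 and 34 and non-cachectic 61 to 65 and 67 (-0.73 to -0.57 over all libraries left out), with no filter (limma adjusted p = 0.0537) and by Dunn tests (adjusted p = 0.0815).

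The Amd2 level followed the Pcna-ps2 state of the library. In the diaphragm, Amd2 ran from 0.626 to 1.66 TPM in the 26 high-state libraries and from 2.69 to 4.04 TPM in the 13 low-state libraries, with no overlap over the 4 groups. Of all genes tested, 0.127% were lower in every high-state library. Between states Amd2 was lower by 1.09 (SE 0.07, limma adjusted p = 4.28e-15, melanoma and injection in the fit), where 61% of genes were called. With the state as a term, the melanoma difference of Amd2 in mock diaphragm was -0.02 (limma adjusted p = 0.947), and among high-state libraries alone it was -0.07 (limma adjusted p = 0.713). The single low-state cachectic mock library held 2.80 TPM, and the next highest of that group 1.54 TPM.

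As a share of Amd1 plus Amd2, Amd2 took 1.06% to 3.98% in the 36 high-state libraries and 7.08% to 12.5% in the 23 low-state libraries of all 3 muscles. The summed level of both genes was 102 ± 14 and 88.1 ± 16 TPM in tibialis anterior, 42.6 ± 2.2 and 43.6 ± 8.5 TPM in soleus and 39.6 ± 9.3 and 38.6 ± 7.4 TPM in mock diaphragm, non-cachectic first (SD). The sums overlapped between the melanomas in each muscle. Whether the split of reads between the copies moved with the state was not tested.

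**Figure D3:**
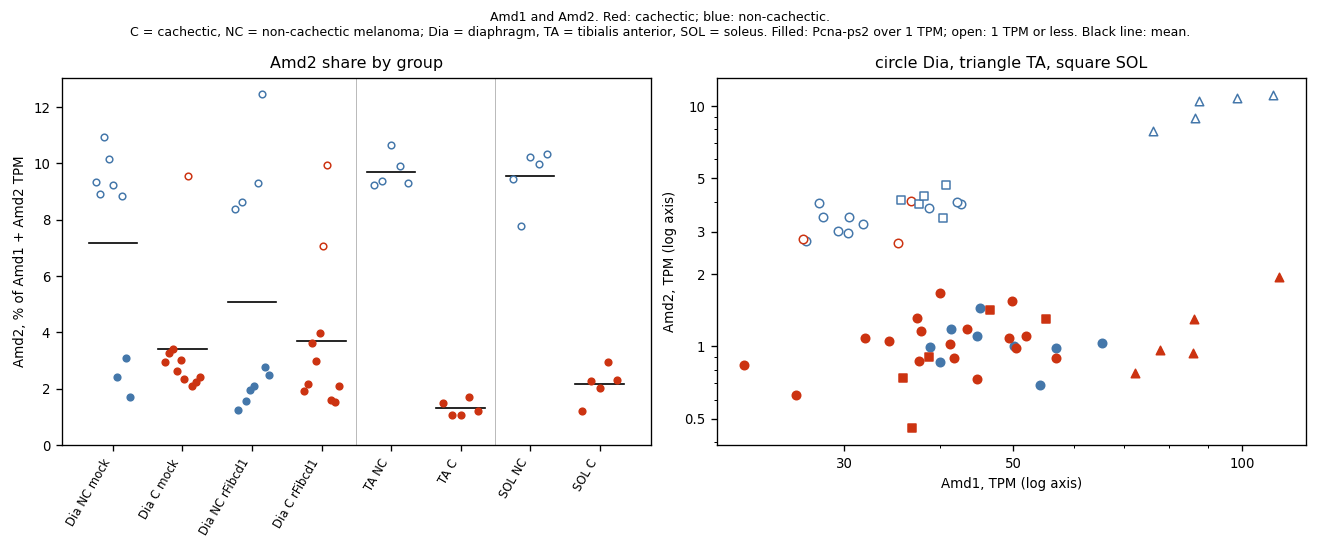
Left, Amd2 as a percent of the summed Amd1 and Amd2 TPM in each library by group. Right, Amd2 against Amd1 in TPM on log axes. Filled points are high-state and open points low-state libraries. The open points lie at 7.08% or more and the filled points at 3.98% or less in every muscle.

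The fall of Amd2 also differed between muscles. It was larger in tibialis anterior than in mock diaphragm by 1.69 (SE 0.26, limma adjusted p = 0.000112), where 5.04% of genes were called (0.711% in that direction). It was larger in tibialis anterior than in soleus by 0.94 (SE 0.30, limma adjusted p = 0.0261), a call lost without tibialis anterior library 8 (-0.90, limma adjusted p = 0.0527) and with a pseudocount of 0.1 (-0.96, limma adjusted p = 0.111). The share of high-state libraries also changed unequally, from 0 of 5 to 5 of 5 in both hindlimb muscles and from 3 of 9 to 9 of 10 in mock diaphragm, and the part of the state in these differences between muscles was not tested. The Amd2 level of low-state libraries was itself 9.85 ± 1.4 TPM in tibialis anterior and 4.06 ± 0.47 TPM in soleus (SD, n = 5).

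Srm, spermidine synthase, was called higher in both diaphragm comparisons. Mock diaphragm values ran from 10.5 to 14.9 TPM (median 11.8) and from 10.5 to 21.2 TPM (median 14.5), with 4 of 10 cachectic libraries above all others. The rise was 0.27 (SE 0.11, limma adjusted p = 0.0475), close to the median of all genes. That call was lost without any of 22 of the 39 libraries (0.22 to 0.32), with median-ratio scaling (0.06, adjusted p = 0.748, limma), with the state as a term (0.21, limma adjusted p = 0.237), among high-state libraries alone (0.36, limma adjusted p = 0.135), with no filter (limma adjusted p = 0.0730) and by Dunn tests (adjusted p = 0.0566). With rFibcd1 it ran from 9.05 to 13.9 TPM (median 12.5) and from 13.1 to 26.05 TPM (median 16.8), with 9 of 10 cachectic libraries above all others. The rise was 0.45 (SE 0.11, limma adjusted p = 0.0068) and kept its call with the state as a term (0.43, limma adjusted p = 0.00875). It was not called among high-state libraries alone (0.45, limma adjusted p = 0.290), where 0% of genes were, or by Dunn tests (adjusted p = 0.0865).

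In tibialis anterior Srm was at 5.54, 5.85, 4.87, 5.18 and 5.72 TPM against 6.56, 6.73, 29.99, 8.03 and 8.97 TPM. The groups did not overlap, as for 49.1% of all genes in that direction, but the library at 29.99 TPM, number 8, widened the spread. The difference of 0.78 (SE 0.32) was not called (limma adjusted p = 0.0516), and without that library it was 0.41 and was called (limma adjusted p = 0.00320), as it was without number 6 or 7, with a pseudocount of 0.1 (limma adjusted p = 0.0454) and by Dunn tests (adjusted p = 0.0175). In soleus the values were 13.3, 11.5, 12.4, 12.6 and 12.4 TPM against 13.2, 13.7, 20.8, 17.3 and 13.8 TPM, and the difference of 0.30 was not called (limma adjusted p = 0.0903), except without cachectic library 6.

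Sms, spermine synthase, was not called between the melanomas in any muscle. Its difference was -0.14 (95% interval -0.37 to 0.10) in mock diaphragm, -0.0032 in tibialis anterior (-0.24 to 0.24) and -0.10 (-0.32 to 0.11) in soleus. In tibialis anterior with median-ratio scaling it was called lower (-0.49, limma adjusted p = 0.0324). Over mock diaphragm libraries it ran from 11.6 to 20.2 TPM (median 15.1) and from 10.2 to 18.8 TPM (median 13.9). With the state as a term it was called lower by 0.36 (limma adjusted p = 0.00849), where 15.3% of genes were called, and with median-ratio scaling by 0.35 (limma adjusted p = 0.0103). Among high-state mock libraries its mean was 18.9 TPM (n = 3) with the non-cachectic and 13.97 TPM (n = 9) with the cachectic melanoma, and it was called lower by 0.42 (limma adjusted p = 0.0477), where 5.69% of genes were called.

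Besides Amd2, 5 of the 10 genes were called between states in the diaphragm, all higher in high-state libraries, a share near that of all genes. The differences were 0.46 for Amd1, 0.44 for Odc1, 0.41 for Sat1, 0.40 for Sms and 0.34 for Azin1 (limma adjusted p = 0.00109, 0.00138, 0.0276, 5.04e-05 and 0.0189).

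**Figure D4:**
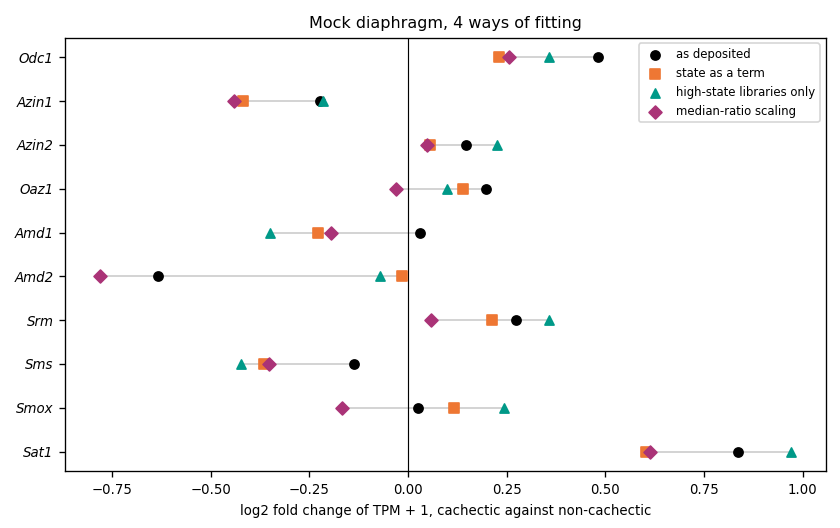
Cachectic minus non-cachectic difference in log2(TPM + 1) in mock diaphragm for each gene, fitted in 4 ways. Amd2 moves from -0.63 as deposited to -0.02 with the state as a term, and Sat1 stays between 0.60 and 0.97.

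Smox, spermine oxidase, turns spermine back into spermidine. In tibialis anterior it was at 34.6, 16.5, 31.0, 29.7 and 25.5 TPM with the non-cachectic and at 17.4, 15.7, 20.6, 19.1 and 14.1 TPM with the cachectic melanoma. The non-cachectic library at 16.5 TPM lay within the cachectic group, and 2 cachectic libraries lay below all others. Smox fell by 0.60 (SE 0.18, limma adjusted p = 0.0166), and by 1.08 with median-ratio scaling (limma adjusted p = 0.00182). Dunn tests did not call it (adjusted p = 0.0665). In diaphragm and soleus Smox was low, with means between 4.6 and 5.42 TPM, and was not called. The difference was 0.03 (95% interval -0.17 to 0.22) in mock diaphragm and -0.11 (-0.50 to 0.28) in soleus. Its fall in tibialis anterior was not called different from the diaphragm value (difference 0.63, limma adjusted p = 0.0617), but was with median-ratio scaling (0.93, limma adjusted p = 0.00631), where 5.15% of genes were called, and with the column numbers as a block (0.56, limma adjusted p = 0.0286), again among 17.2% of genes. Against soleus the difference was -0.49 and not called (limma adjusted p = 0.115), but was called with the block (limma adjusted p = 0.0380), where 41.2% of genes were, and with median-ratio scaling (-0.91, limma adjusted p = 0.0104), where 11.5% were. In the same tibialis anterior comparison the fast fiber myosin Myh1 was called lower (-0.55) and Myh4 was not called (0.24). Myh2, of fast oxidative fibers, was called lower (-0.75), the slow fiber markers Myh7 and Tnni1 higher (0.89 and 0.80) and Myl2 lower (-1.20). Their part in the Smox difference was not tested.

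Sat1, spermidine/spermine acetyltransferase, tags polyamines for export and breakdown. The mock diaphragm values ran from 15.1 to 23.0 TPM (median 19.2) and from 19.6 to 90.0 TPM (median 35.8), and 9 of 10 cachectic libraries lay above all non-cachectic ones. The tenth, at 19.6 TPM, was the low-state library. Sat1 rose by 0.84 (SE 0.21, limma adjusted p = 0.00275), and by 0.69 without the library at 90.0 TPM (limma adjusted p = 0.00686). With median-ratio scaling it rose by 0.61 (limma adjusted p = 0.0169). With the state as a term it was 0.60 and not called (limma adjusted p = 0.0517), and among high-state libraries alone 0.97 and not called (limma adjusted p = 0.0647).

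In tibialis anterior Sat1 was at 10.3, 10.6, 10.0, 10.5 and 12.2 TPM against 16.5, 20.6, 60.9, 15.9 and 15.9 TPM, with no overlap, as for 49.1% of all genes in that direction. It rose by 0.99 (SE 0.31, limma adjusted p = 0.018), and by 0.63 without the library at 60.9 TPM (limma adjusted p = 0.000186). With median-ratio scaling the difference was 0.51 and was not called (limma adjusted p = 0.0712). In soleus it was at 19.0, 17.0, 18.0, 20.2 and 24.1 TPM against 26.9, 38.1, 46.7, 39.9 and 32.9 TPM, again with no overlap (14.6% of all genes in that direction). There it rose by 0.86 (SE 0.14, limma adjusted p = 0.00186). With rFibcd1 the diaphragm values ran from 15.5 to 40.6 TPM (median 20.5) and from 19.0 to 58.7 TPM (median 34.6), and the difference of 0.61 was not called (limma adjusted p = 0.0527). It was called when any of 8 of the 39 libraries was left out (0.52 to 0.70 over all) and with median-ratio scaling (0.53, limma adjusted p = 0.0468).

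The ratios of opposing enzymes were read as descriptions, with no test, and how often other ratios fail to overlap was not computed. Single genes did not overlap, with the cachectic group higher, in 49.1% of cases in tibialis anterior, 14.6% in soleus and 4.07% in mock diaphragm. With it lower, the shares were 2.55%, 5.4% and 0.29%. In mock diaphragm 3 of 9 non-cachectic and 9 of 10 cachectic libraries were high-state, and in the hindlimb muscles the state and the melanoma cannot be told apart. Odc1 over Oaz1 was 0.170 ± 0.021 and 0.454 ± 0.12 in soleus (SD, n = 5, non-cachectic first), with no overlap. It was 0.208 ± 0.026 and 0.262 ± 0.070 in mock diaphragm, 0.187 ± 0.021 and 0.287 ± 0.085 with rFibcd1 (9 of 10 cachectic libraries above all others) and 0.150 ± 0.020 and 0.184 ± 0.094 in tibialis anterior, with overlap in all 3. Azin1 over Oaz1 in mock diaphragm was 0.0662 to 0.0823 and 0.0435 to 0.0638, so that all 10 cachectic libraries lay below all 9 non-cachectic ones. With rFibcd1 that ratio ran from 0.0631 to 0.0952 and from 0.0336 to 0.202, and the groups overlapped, as they did in tibialis anterior (4 of 5 cachectic libraries below all others) and soleus (means 0.0675 and 0.0713). Smox over Sat1 in tibialis anterior was 2.59 ± 0.74 and 0.848 ± 0.33, and in soleus 0.278 ± 0.029 and 0.138 ± 0.036, with no overlap in either muscle. In diaphragm it overlapped, at 0.242 ± 0.051 and 0.145 ± 0.063 with mock (8 of 10 cachectic libraries below all others) and 0.222 ± 0.063 and 0.155 ± 0.055 with rFibcd1 (2 of 10).

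**Figure D5:**
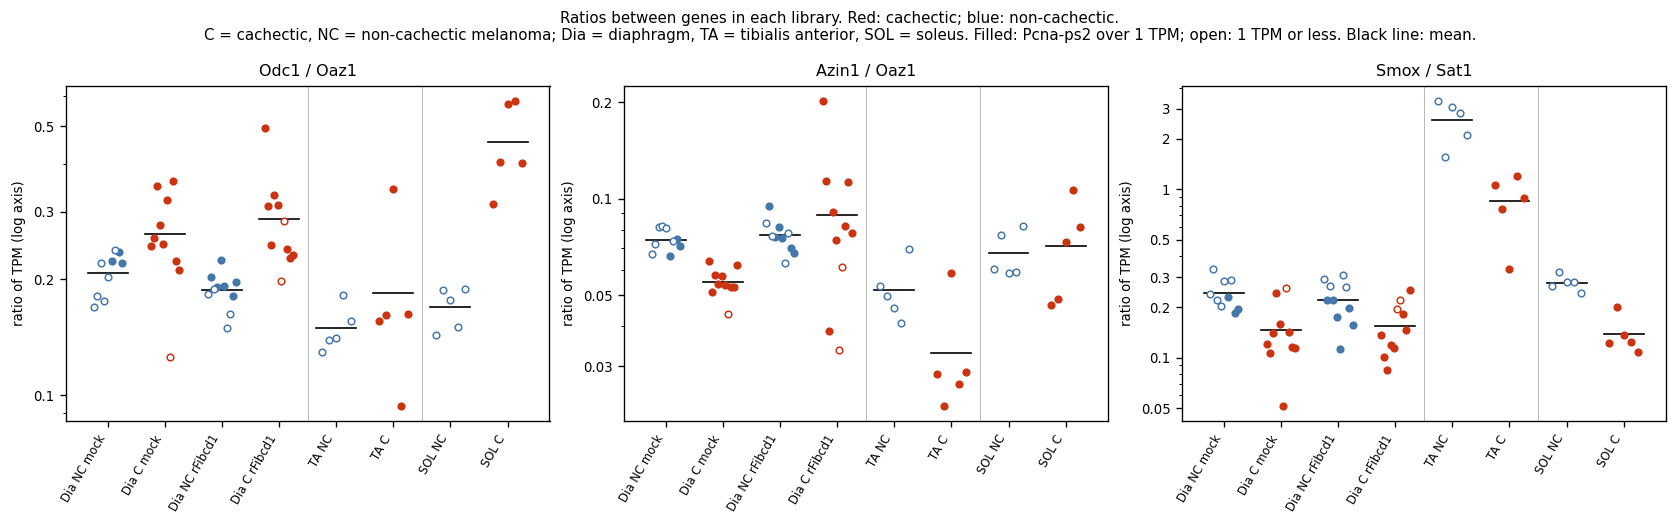
Ratios of TPM between 3 pairs of polyamine genes in each library, by group, on log axes, with the group mean as a black line. Odc1 over Oaz1 in soleus shows no overlap between the melanomas (means 0.170 and 0.454), and Smox over Sat1 is above 1 in all 5 non-cachectic tibialis anterior libraries.

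No polyamine gene was called for rFibcd1 itself. In cachectic diaphragm 0 of 10 were called against mock, where 0.0447% of all genes (6 of 13426) were, and in non-cachectic diaphragm 0 of 10, where 0.417% were (limma). The change of the melanoma difference with rFibcd1 was called for 0 of 10, and for 0.0223% of all genes. Over all genes the median was 0.03, 0.15 and -0.11 in these 3 comparisons, and with median-ratio scaling higher calls made up 55.6% in place of 83.3% in cachectic and 50.9% in place of 83.9% in non-cachectic diaphragm. Dunn tests called 0 of 10 against mock in either melanoma, and 0% of all genes in cachectic and 0.104% in non-cachectic diaphragm. At an unadjusted p under 0.05 the first held Azin1 alone, the second Oaz1 alone (0.16, p = 0.0288, adjusted p = 0.272, limma) and the third 0 of 10. The Oaz1 difference was called when only those 2 groups were fitted (limma adjusted p = 0.0338), along with 19.6% of genes. For Odc1 the change with rFibcd1 of the melanoma difference was 0.19 (95% interval -0.25 to 0.63). An index of clock genes (mean log2(TPM + 1) of Arntl, Npas2, Clock and Nfil3 minus that of Dbp, Tef, Hlf, Per2, Per3, Nr1d1, Nr1d2 and Ciart) averaged -2.90 ± 0.71 with mock and -0.14 ± 1.04 with rFibcd1 in non-cachectic diaphragm, and -1.90 ± 1.12 and -1.39 ± 1.13 in cachectic diaphragm (SD), with no test. With the index in the fit, 0 of 10 genes were called against mock in either melanoma (limma).

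Levels were also compared between muscles with the non-cachectic melanoma. Diaphragm against tibialis anterior gave 2 genes higher and 6 lower of 10, against 64% and 8.52% of 13501 genes (72.5% in all). Tibialis anterior against soleus gave 4 higher and 4 lower, against 5.63% and 63.9% (69.5% in all). Diaphragm against soleus gave 3 lower, against 22.1% (38.8% in all). The first and second of these comparisons have medians of 0.44 and -0.47 over all genes, and with median-ratio scaling higher calls made up 48.7% in place of 88.3% and 52.9% in place of 8.10% of all calls (70.9% and 53.3% of genes called, and 47.2% for diaphragm against soleus). Dunn tests kept 6, 2 and 1 of these calls in the order given, and called 51%, 37% and 8.73% of all genes. They lost Oaz1 and Sat1 in the first, Smox, Srm, Amd2, Oaz1, Sat1 and Sms in the second, and Amd2 and Sms in the third. The fast tibialis anterior was high in Smox, Amd1, Amd2 and Sms. Smox was at 27.5 ± 6.9 TPM there, 5.42 ± 0.34 TPM in soleus and 4.66 ± 0.76 TPM in diaphragm (SD), a difference of 2.11 to soleus and of 2.30 to diaphragm (limma adjusted p = 3.41e-13 and 8.96e-16). Amd1 was higher by 1.22 and 1.32, Amd2 by 1.10 and 1.67, and Sms by 0.72 and 1.27 in the same order. Oaz1 and Azin2 were also higher in tibialis anterior than in diaphragm (diaphragm minus tibialis anterior -0.19 and -0.30). Azin1 was not called between them (0.32, limma adjusted p = 0.0611), but was with the column numbers as a block (0.32, limma adjusted p = 0.0352), where 76.9% of genes were called.

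Tibialis anterior was low in Srm and Sat1. As deposited, 64% of all genes were called lower there than in diaphragm and 63.9% than in soleus. Among markers of other cell types, 6 of 6 macrophage, 4 of 4 adipocyte, 3 of 3 endothelial and 3 of 3 fibroblast markers were called lower there than in diaphragm and again than in soleus. Red blood cell markers were called lower in 5 of 5 cases than in diaphragm and 0 of 5 than in soleus, neutrophil markers in 2 of 4 and 0 of 4, and liver markers in 3 of 3 and 0 of 3. The part of these cell types in the differences below was not tested. Srm was at 5.43 ± 0.40 TPM there against 12.5 ± 0.64 TPM in soleus and 12.2 ± 1.5 TPM in diaphragm, and lower by 1.07 and 1.03. Sat1 was at 10.7 ± 0.85 TPM against 19.7 ± 2.8 and 19.6 ± 3.1 TPM, and lower by 0.81 and 0.80. The diaphragm part of that Sat1 difference was 0.26 and not called with median-ratio scaling (limma adjusted p = 0.233). The soleus part was -0.22 and not called either (limma adjusted p = 0.422). Azin1 was lower in tibialis anterior than in soleus by 0.63, a call lost with that scaling (-0.05, adjusted p = 0.788, limma), and Oaz1 was lower by 0.29 but higher by 0.34 with that scaling. Azin2 was not called against soleus as deposited (0.09) but was higher by 0.44 with that scaling (limma adjusted p = 0.00203). Diaphragm was lower than soleus in Amd2 (0.57), Sms (0.55) and Oaz1 (0.48). Azin1 was not called between diaphragm and soleus as deposited, but was lower in diaphragm with that scaling (-0.26, limma adjusted p = 0.0481). The hindlimb libraries of these comparisons were all low-state, and 6 of the 9 diaphragm libraries were.

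The order of mean Smox was tibialis anterior, then soleus and diaphragm, a pair that was not called different (-0.19, limma adjusted p = 0.30). The order of Odc1 was soleus, diaphragm and tibialis anterior at 44.4 ± 4.32, 39.3 ± 6.92 and 32.3 ± 5.45 TPM, and neither neighboring pair was called (limma adjusted p = 0.497 and 0.248). Tibialis anterior against soleus was not called for Odc1 (-0.46, limma adjusted p = 0.0869), but was with the block (limma adjusted p = 0.0289), where 76.1% of genes were called.

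A further 28 genes around the pathway were counted as a list: ornithine and methionine supply, other antizymes and catabolic enzymes, hypusination of Eif5a (the use of spermidine to modify that translation factor), transport, and known regulators. In mock diaphragm 8 of 25 tested were called higher and 1 lower, in tibialis anterior 12 of 22 higher, in soleus 4 of 22 higher and 3 lower, and in rFibcd1 diaphragm 5 of 25 higher. Over all genes 30.9%, 56.4%, 17.5% and 7.14% were called higher in the same order, and nothing is read from the counts about the list. With median-ratio scaling the counts were 5 higher and 4 lower in mock diaphragm, 4 and 4 in tibialis anterior, 4 and 4 in soleus and 3 and 2 with rFibcd1, where 15.8%, 40.3%, 28% and 8.97% of all genes were called in either direction. With the state as a term the counts were 6 higher and 1 lower in mock diaphragm and 5 and 1 with rFibcd1, where 15.3% and 10.1% of all genes were called. No list gene was called for rFibcd1 in either melanoma.

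Slc3a2, the heavy chain of amino acid transporters that has been tied to polyamine export, averaged 18.0 TPM with the non-cachectic and 49.1 TPM with the cachectic melanoma in mock diaphragm and rose in all 3 muscles (1.35, 1.67 and 1.26 in mock diaphragm, tibialis anterior and soleus; limma adjusted p = 1.49e-06, 0.000766 and 0.00105). Myc, a transcription factor known to drive Odc1, rose by 1.47, 1.74 and 1.36 in the same order. Cdkn1a, a cell cycle inhibitor, rose by 1.26, 1.83 and 1.55. These 3 genes kept their calls with median-ratio scaling (Slc3a2 1.13, 1.19 and 1.16, Myc 1.29, 1.36 and 1.28, Cdkn1a 1.04, 1.35 and 1.46). Eif5a rose by 0.38, 0.54 and 0.34, and with that scaling was called in soleus alone (0.15, 0.04 and 0.25). Slc3a2, Myc and Eif5a were also called higher with rFibcd1 (0.78, 0.98 and 0.33). Paox, which oxidises the products of Sat1, rose by 0.70 in mock diaphragm, 1.09 in tibialis anterior and 0.46 with rFibcd1, and with that scaling kept its call in mock diaphragm (0.50) but not in tibialis anterior (0.65) or with rFibcd1 (0.39). Oat, which links ornithine to glutamate, rose by 0.32 and 0.63 in mock diaphragm and tibialis anterior, and lost both calls with that scaling (0.09 and 0.13). Atp13a2, a lysosomal polyamine exporter, rose by 0.46 and 0.80, and by 0.25 and 0.34 with that scaling. Adi1, of the methionine salvage that recovers the spent donor, fell by 0.40 in mock diaphragm and 0.42 in soleus, and kept both calls. Eif5a2 was called higher with rFibcd1 alone of these comparisons (0.34). Median-ratio scaling called 3 list genes higher there in place of 5, so Paox was not alone in losing its call. Between states in the diaphragm, Myc, Atp13a2, Slc3a2 and Eif5a2 were called higher in high-state libraries (0.45, 0.42, 0.32 and 0.22). Cdkn1a, Eif5a, Paox, Oat and Adi1 were not called between states, where 61% of all genes were. The list gene differences above are without the state as a term.

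Tibialis anterior library 8 was also the highest of its group for Myc (23.4 TPM) and Cdkn1a (204 TPM). Cachectic soleus library 8 was the highest of its group for both as well (15.3 and 100 TPM), with its lowest mitochondrial share (24.1%). Cachectic mock diaphragm library 8 was the highest of its group for neither (14.4 and 128 TPM). A non-cachectic mock diaphragm library, number 64, held the highest sum of the liver markers Alb, Apoa1 and Ttr (7024 TPM). Without that library Odc1, Oaz1, Srm and Sat1 kept their calls in mock diaphragm and Amd2 lost it (-0.58, limma adjusted p = 0.0601).

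Promoter windows of 300 bases, 250 before the start and 50 after it, were found in RefSeq for 7 of the 10 genes. Sequence beyond these windows, such as later introns, was not searched. The E-box letters CACGTG, which read the same on both strands and which Myc can bind, occurred for Sms and for none of the other 6, and in 7.15% of 32851 windows.

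Within groups, the genes most like Odc1 over the 39 diaphragm libraries were Nudt4 (Pearson r = 0.87), Xpnpep1 (0.85), Tgm2 (0.84), Arf1 and Acot9 (0.83 each), among 9057 genes with a mean of at least 5 TPM. Those most like Amd1 were Mrm1 (0.84), Mrpl49, Khdrbs3 (0.83 each), Paqr4 (0.82) and Dusp22 (0.81). Smox had weaker company, led by Prep (0.68), Csrp3 and Tspan9 (0.62 each), Pcna (0.61) and Vps9d1 (0.60). These values share libraries and state and are given as descriptions.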

How the data were processed

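The data are RNA-seq of 59 muscle libraries, grouped by the sample labels. The authors aligned reads to the mouse genome (mm10 per the labels) with CLC Genomics Workbench, as their methods state for diaphragm, and deposited TPM values, with 1 table column for each library. The annotation is not given in the sources used here, and the labels and the methods name different library kits and instruments. No column of another series was present (0). Column numbers could not be tied to labelled replicates, so columns were used as unnumbered group members. TPM keeps no depth, so no counting intervals were computed.

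Values were transformed to log2(TPM + 1), with genes kept at 1 TPM or more in as many libraries as the smallest group holds. Groups were compared by limma 3.58.1 in R 4.3.3 (trended empirical Bayes, two-sided, Benjamini-Hochberg over all genes): the 39 diaphragm libraries in 1 fit, each hindlimb muscle in its own, and muscles in a fit of the 39 libraries without rFibcd1. Dunn tests after Kruskal-Wallis, the authors' choice, were run as an alternative. The others were a pseudocount of 0.1, no filter, median-ratio scaling, fits of only the groups compared, the Pcna-ps2 state (1 TPM) as a term or high-state libraries alone, a clock index, each library left out, and a block on column numbers, which was chosen after the data were seen. Same-numbered columns of different muscles deviated together from their group means in 10 of 10 pairs for diaphragm and tibialis anterior (r from 0.16 to 0.59), 10 of 10 for tibialis anterior and soleus (0.20 to 0.50) and 8 of 10 for diaphragm and soleus (-0.04 to 0.49, limit 0.1), so blocked values stand beside calls they change in the first and second. The pairing comes from the data, not from the labels. The fits were tested on simulated data. Named genes were the 10 genes, list genes called in at least 2 of the 3 melanoma comparisons without rFibcd1 or in any rFibcd1 comparison, and for Odc1, Amd1 and Smox the 5 most alike genes. The 10 genes and all lists were chosen with earlier results of these data known. Sequence windows of 100 bases were compared over GENCODE M21 transcripts, and 94.7% of table symbols had a GENCODE M21 name. Start site and promoter sequences are from RefSeq (GRCm38.p6).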

Additional observations from a re-analysis of the deposited data

Results flagged for a closer look

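Of 80 sets of values (10 genes in 8 groups), 15 held a library far from the rest of its group by Dixon's test, where chance gives about 5%. In cachectic tibialis anterior, library 8 was the highest for Odc1 (109 TPM), Azin1 (18.7 TPM), Srm (29.99 TPM) and Sat1 (60.9 TPM), and library 9 for Sms (45.9 TPM). In cachectic diaphragm with rFibcd1, library 1 was the highest for Odc1 (117 TPM), Azin1 (47.8 TPM) and Smox (8.01 TPM). In cachectic mock diaphragm the highest values stood apart for Sat1 (90.0 TPM), Amd2 (2.80 TPM) and Azin2 (1.73 TPM), each in a different library. In the non-cachectic groups, Sat1 stood apart at 40.6 TPM (diaphragm with rFibcd1) and 12.2 TPM (tibialis anterior), Srm was lowest at 9.05 TPM (diaphragm with rFibcd1) and Smox was lowest at 2.95 TPM (mock diaphragm).

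The difference between the melanomas differed between muscles for Amd2 (mock diaphragm minus tibialis anterior 1.69, tibialis anterior minus soleus -0.94) and for Odc1 (mock diaphragm minus soleus -1.08, tibialis anterior minus soleus -0.93), each called by limma's test of the difference itself. The last Amd2 call was lost without tibialis anterior library 8 (-0.90, limma adjusted p = 0.0527) and with a pseudocount of 0.1, and both Odc1 calls were lost with no filter (limma adjusted p = 0.0504 and 0.0780). High-state libraries went from 0 of 5 to 5 of 5 in both hindlimb muscles and from 3 of 9 to 9 of 10 in mock diaphragm, where the Amd2 difference was -0.02 with the state as a term. The part of the state in the differences between muscles was not tested.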

How the results depend on the processing

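Counts below are of the 10 genes called. With median-ratio scaling the Oaz1 difference turned to -0.0313 in mock diaphragm, -0.0312 in tibialis anterior and 0.34 for tibialis anterior against soleus. Between the melanomas in mock diaphragm (5 called), 3 were called with no filter (18% of all genes), 3 by Dunn tests (40.5%), 1 with the state as a term (15.3%) and 1 in high-state libraries (5.69%). In both of the latter the called gene was Sms, and the 5 genes called as deposited (Odc1, Oaz1, Srm, Sat1 and Amd2) all lost their calls. With rFibcd1 (2 called), 0 were called by Dunn tests (0% of all genes, adjusted p = 0.0865 for Odc1 and Srm) and 0 in high-state libraries. For rFibcd1 against mock (0 called), 2 were called in high-state cachectic libraries (Azin1 and Sms, the latter higher by 0.32, limma adjusted p = 0.0413) and 1 in non-cachectic diaphragm when only the 2 groups were fitted. Dunn tests called 1 in place of 3 between diaphragm and soleus (8.73% of all genes) and 2 in place of 8 between tibialis anterior and soleus (37%). For the difference of the melanoma effect, median-ratio scaling called 2 in place of 1 (diaphragm against tibialis anterior, 5.15% of all genes), 2 in place of 1 (diaphragm against soleus, 3.73%) and 4 in place of 2 (tibialis anterior against soleus, 11.5%), no filter called 0 for diaphragm against soleus (1.81%) and 1 for tibialis anterior against soleus (9.89%), and a pseudocount of 0.1 called 1 for the latter (25.2%). The causes were not tested.

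Leaving out each library in turn gave 2 to 5 calls in mock diaphragm, 2 to 3 with rFibcd1, 0 to 1 for rFibcd1 against mock in cachectic diaphragm, 4 to 7 in tibialis anterior, 3 to 4 in soleus, 8 to 9, 3 to 4 and 8 to 9 between non-cachectic diaphragm and tibialis anterior, diaphragm and soleus, and tibialis anterior and soleus, 1 to 3 for diaphragm against tibialis anterior effects, 0 to 1 for diaphragm against soleus effects and 1 to 3 for tibialis anterior against soleus effects. The tibialis anterior call of 7 came without cachectic library 8.

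The replicate block on labelled numbers could not be fitted, since the columns carry no labelled replicate number. Pairing by column number was less complete for diaphragm and soleus, with 8 of 10 pairs over an r of 0.1 and 7 of 10 most alike with their own number. The block left the counts for diaphragm against soleus at 3 for levels and 1 for the effect difference. With the replicate block by column number, the effect differences called 3 for diaphragm against tibialis anterior, with Smox and Oaz1 added, and 4 for tibialis anterior against soleus, with the same genes added. The block changed no other call than those given with their values for Smox, Oaz1, Azin1 and Odc1. Depth is unknown, and low values such as those of Azin2 and Amd2 carry unknown counting error.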
